A study of Mus musculus with 6 samples.

Results

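The genes examined here encode the chemokine ligands and chemokine receptors of the mouse heart, including the B cell chemokine Cxcl13. They were taken as every non-control probe whose gene name begins with Ccl, Cxcl, Ccr or Cxcr followed by a number, or is Xcl1, Cx3cl1 or Cx3cr1. This gave 63 probes of 50 genes, among 41174 non-control probes with 27745 gene names, with 43 probes of 34 ligand genes and 20 probes of 16 receptor genes. RNA had been taken from the hearts of 3 wild type (WT) male mice and 3 TG-PKR1 male mice, all 12 weeks old, and hybridized with 1 dye to Agilent expression arrays, 1 heart per array. TG-PKR1 mice overexpress prokineticin receptor 1, a G protein-coupled receptor, from the alpha myosin heavy chain promoter, which is active in cardiomyocytes and not in the stromal or immune cells that make most chemokines. The methods give a C57BL6/J background for the study's mice, and the labels name no other allele and no agent for either group. The groups were compared to see whether Cxcl13 is alone among chemokine genes in being lower in TG-PKR1 hearts, and whether its receptor registers on the arrays at all.

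Chemokines are small secreted proteins that direct the migration of leukocytes along a gradient. They bind membrane-spanning receptors that signal through inhibitory G proteins, and most ligands of the CC and CXC families share receptors with close relatives. Homeostatic chemokines such as Cxcl13, Ccl19, Ccl21 and Cxcl12 position lymphocytes and progenitors in resting tissue, whereas inflammatory chemokines are induced in injured or infected tissue. In the heart they are made mainly by fibroblasts, endothelium, macrophages and the adipose tissue around the organ.

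The hearts are called WT 1 to 3 and TG 1 to 3, and the numbers carry no pairing. Between 19650 and 24923 probes per array were well above background, a mark that the scanner software gives to each spot. Normalized log2 signals of arrays from the same group correlated at 0.975 to 0.987, and those of arrays from different groups at 0.971 to 0.992. The arrays of WT 1, TG 2 and TG 3 held 955 to 1252 spots scaled up from a second scan at low gain, and the other 3 arrays held none. Signal over background, as the 75th percentile of spot signals over the median local background, was 11.4 to 14.1 on the former and 2.08 to 3.97 on the latter. One slide carried both WT 2 and TG 1, and the other 4 arrays each lay on a slide of their own. The single probe of Prokr1, the gene of the overexpressed receptor, was well above background on 0 of 6 arrays, so these arrays do not check the genotypes. Levels below are normalized log2 median signals, and each difference is TG-PKR1 minus WT on that scale with its standard error from limma. All 14 cardiomyocyte marker probes were well above background on at least 3 arrays.

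Of the 63 probes, 38 were well above background on at least 3 of 6 arrays, and these covered 23 of the 34 ligand genes and 8 of the 16 receptor genes. A set of 31 probes was well above background on all 6 arrays. Another 8 probes reached that mark on 1 or 2 arrays and 17 probes on 0 arrays, and 0 probes were saturated. The 19 genes without a probe at 3 arrays were the ligands Ccl1, Ccl3, Ccl17, Ccl20, Ccl22, Ccl28, Cxcl2, Cxcl5, Cxcl11, Cxcl15 and Xcl1 and the receptors Ccr1, Ccr1l1, Ccr3, Ccr4, Ccr7, Ccr8, Ccr9 and Ccr10. They include the T helper cell ligands and their receptors Ccr4 and Ccr8, and 3 of 4 neutrophil ligand genes. The mean level of the 25 probes below the mark lay between 5.74 and 6.16, and their differences between the groups ranged from -0.09 to 0.14. Where a gene is not well above background, the arrays do not show that it is absent. The counts of receptors also depend on the names in the files, in which Cxcr5 stands as Blr1, Cxcr1 as Il8ra and Cxcr2 as Il8rb.

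Cxcl13, the chemokine that draws B cells and follicular helper T cells into lymphoid follicles and fat-associated lymphoid clusters, was lower in TG-PKR1 hearts. Its probe lies on chromosome 5 of mm8, chr5:96201144-96201203 on the plus strand. The level was 8.29, 7.95 and 8.0 in WT hearts and 6.74, 6.56 and 6.56 in TG-PKR1 hearts. Every TG-PKR1 heart was below every WT heart. The difference was -1.46 ± 0.16 (SE, n = 3 per group), a level 2.76-fold higher in WT hearts, with an adjusted p of 0.0339 by limma with Benjamini-Hochberg adjustment over 20000 probes. SAM, the test named in the study's methods, also called the probe. Across all 20000 probes, limma called 19 probes lower in TG-PKR1 hearts, or 0.095%, and SAM called 0.271% of the probes it tested. Cxcl13 ranked 5 by p and 43 by the size of its fall. With 3 hearts per group, a two-sided exact permutation test cannot give a p below 0.1, and Cxcl13 stood at that value.

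The signal of the Cxcl13 spot before normalization parted the groups within each kind of array. On the arrays with scaled-up spots the median spot signal was 676 in WT 1 against a local background of 71. It was 178 in TG 2 and 210.5 in TG 3, against backgrounds of 61 and 65. On the arrays without such spots it was 78 in WT 2 and 134 in WT 3 and 50 in TG 1, against backgrounds of 39, 39 and 39.5. Signal over background was therefore lowest in TG 1, at 1.27, where the software still marked the spot as well above background. The normalized difference was -1.73 among the arrays with scaled-up spots, -1.24 among the others and -1.21 between the 2 hearts that shared a slide.

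The Cxcl13 difference kept its direction in every setting, while its call did not hold in all. Over 20 alternative settings the difference ran from -1.16 to -2.43. The larger was the value with background-subtracted processed signal and 75th percentile scaling together. In 11 of the 20 the adjusted p was above 0.05. Alternatives that changed only the probes tested, the variance moderation, the test or the threshold used the same normalized values. In these, neither the difference of -1.46 nor the count of chemokine probes lower by more than 1 could change. A threshold of 0.1 also could not end a call made at 0.05. Leaving out a heart ended the call in 5 of 6 cases, with adjusted p of 0.249 without WT 1, 0.269 without WT 3, 0.25 without TG 1, 0.118 without TG 2 and 0.252 without TG 3. Without WT 2 it was 0.0378. In all 21 tested settings, Cxcl13 was the single one of the 63 name-matched probes lower by more than 1 among those well above background, and the lowest difference of another was -0.67, for Ccr6 without TG 1. Cxcr5, which the files name Blr1 and which is therefore not among the 63, reached -1.42 with processed signal and 75th percentile scaling together, with an adjusted p of 1 by limma. In the settings that left Cxcl13 without a call, no more than 2 probes of any gene were called.

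**Figure D1:**
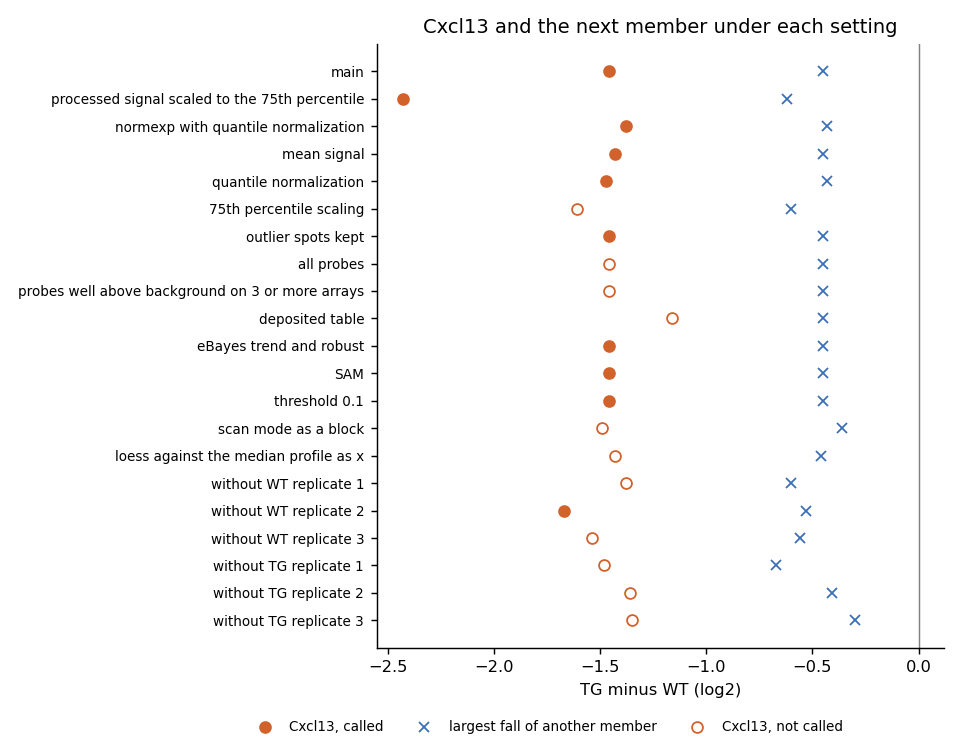
TG-PKR1 minus WT difference on the log2 scale (horizontal axis) under the main setting and 20 alternatives (rows). Circles are Cxcl13, filled where it passed the threshold of that setting, and crosses are the probe with the next lowest difference among the name-matched chemokine probes, which leave out Cxcr5. Cxcl13 lies between -2.43 and -1.16 and the crosses between -0.67 and -0.30.

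The Cxcl13 promoter is shown because it is the regulatory sequence of the one chemokine gene called here. The RefSeq window of 250 bases before the transcription start is chr5:95956689-95956938 on the plus strand of GRCm38.p6, a different build from the mm8 positions of the probes. Capitals mark 3 motifs that were searched on both strands and do not overlap each other. They are TATAAA, the TATA box, GGGAGATTT, the letters of the kappa B site at which noncanonical NF-kB dimers of RelB and p52 bind this gene, and AGGTCA, the half-site of many nuclear receptors, present here as its reverse complement TGACCT.
Cxcl13 promoter: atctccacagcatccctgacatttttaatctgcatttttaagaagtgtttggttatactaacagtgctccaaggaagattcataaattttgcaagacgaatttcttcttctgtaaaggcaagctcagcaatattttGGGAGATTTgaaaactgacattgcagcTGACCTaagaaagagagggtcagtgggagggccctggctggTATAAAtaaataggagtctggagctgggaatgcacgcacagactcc
The motifs begin 114, 87 and 46 bases before the start, in the order GGGAGATTT, TGACCT and TATAAA. GGGAGATTT occurred in 0.283% of the 32851 RefSeq promoter windows of this length, TATAAA in 12.4% and AGGTCA in 14% of them. Of the 37 chemokine genes with a window in the table, 1 held GGGAGATTT, which was Cxcl13 itself, 11 held TATAAA and 11 held AGGTCA. GGGAGATTT was searched as a known site of this gene, so its match in Cxcl13 was given in advance. It is also longer than the other motifs, and a longer motif occurs in fewer windows. A match of letters is a description and no evidence of binding in these hearts.

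Cxcr5, the receptor of Cxcl13 on B cells and follicular helper T cells, registered weakly. Its probe on chromosome 9 of mm8, chr9:44262983-44263042 on the minus strand, carries the older name Blr1 and so was read beside the 63 probes rather than as one of them. It was well above background in WT 1, WT 3 and TG 3 and not in the other 3 hearts. The level was 7.35, 6.33 and 6.80 in WT hearts and 6.19, 5.98 and 6.65 in TG-PKR1 hearts. WT 1 was highest, and TG 3 lay above WT 2, so the groups overlapped. The difference was -0.55 ± 0.28 (SE, n = 3 per group) with a 95% interval from -1.19 to 0.08 and an adjusted p of 1 by limma. It was -1.04 among the arrays with scaled-up spots, -0.37 among the others and -0.13 between the hearts that shared a slide, and leaving out 1 heart gave values from -0.92 (without WT 2) to -0.38 (without WT 1). Before normalization the spot signal was 319.5, 44 and 66 in WT hearts and 44, 104 and 195 in TG-PKR1 hearts, against local backgrounds of 36 to 72. A lower level in TG-PKR1 hearts thus did not pass the threshold, and the interval includes differences from a fall by more than 1 to none. The unadjusted p by limma was 0.0806. Over the alternatives it ran from 0.0157, with normexp and quantile normalization together, to 0.301, without TG 1. With background-subtracted processed signal and 75th percentile scaling together the difference was -1.42, also without a call.

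**Figure D2:**
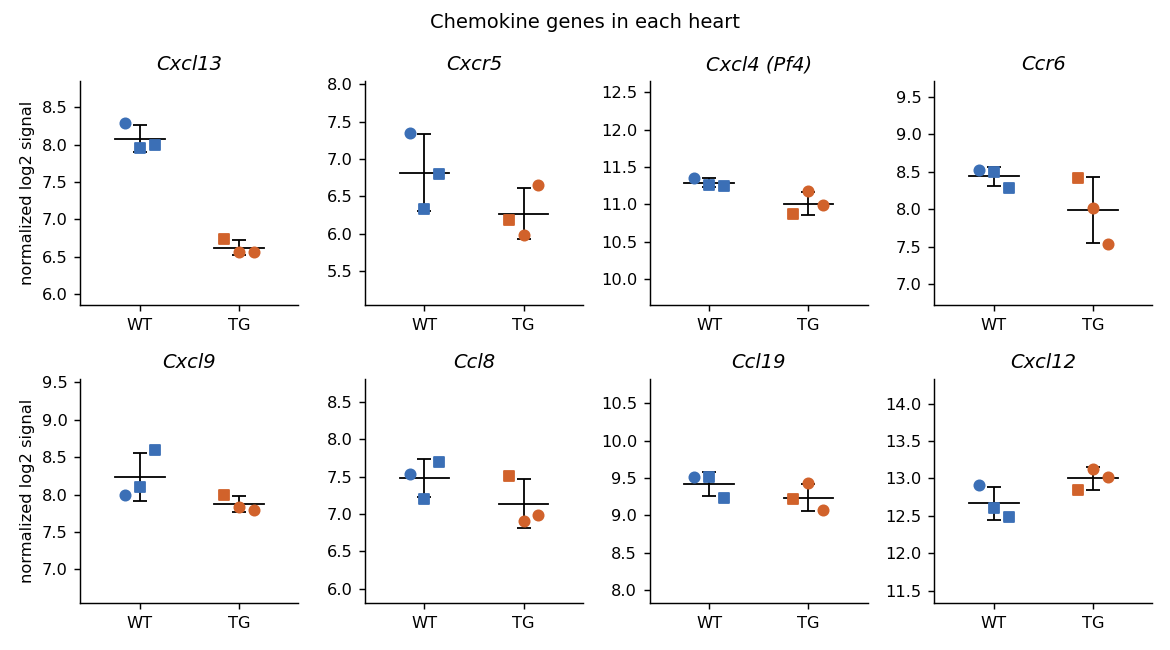
Normalized log2 signal (vertical axis, each panel 3 units high) of 8 chemokine genes in each heart, WT in blue and TG-PKR1 in orange, with the group mean and SD in black. Round points are arrays with spots scaled up from a low-gain scan and squares are arrays without. The groups do not overlap for Cxcl13 and, narrowly, for Cxcl4 (lowest WT heart 11.24, highest TG-PKR1 heart 11.18), and overlap for the other 6 genes.

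Among the other homeostatic ligands, 0 of 5 probes passed the threshold. Ccl19, which draws T cells and dendritic cells through Ccr7, stood at 9.51, 9.51 and 9.23 in WT hearts and 9.22, 9.43 and 9.07 in TG-PKR1 hearts on 1 of its 2 probes, a difference of -0.17 ± 0.16. Its second probe was at 9.32, 9.08 and 8.84 in WT hearts and 9.07, 8.97 and 8.82 in TG-PKR1 hearts, a difference of -0.13 ± 0.17. Ccl21c, a ligand of the same receptor, was at 9.55, 9.47 and 9.45 in WT hearts and at 9.34, 9.94 and 9.79 in TG-PKR1 hearts, where TG 1 was lowest and the other two were highest of the 6. Its difference was 0.20 ± 0.18. Among the arrays with scaled-up spots it was 0.32, among the others -0.12 and between the hearts that shared a slide -0.12. Leaving out 1 heart gave Ccl21c values from 0.1 to 0.38. Ccl19 and the Ccl21 and Ccl27 genes have near-identical copies on mouse chromosome 4, so which copy these probes measured is uncertain. Cxcl12, which retains progenitors and lymphocytes through Cxcr4, had the largest positive difference of the 38 probes. The level was 12.91, 12.61 and 12.48 in WT hearts and 12.84, 13.13 and 13.02 in TG-PKR1 hearts, a difference of 0.33 ± 0.17 with an adjusted p of 1 by limma. TG 1 was below WT 1, and the second Cxcl12 probe, annotated to another transcript, gave 0.05 ± 0.15.

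Platelet factor 4, named Cxcl4 in the files and Pf4 in RefSeq, was the only other chemokine probe whose groups did not overlap. It was at 11.35, 11.26 and 11.24 in WT hearts and 10.87, 11.18 and 10.99 in TG-PKR1 hearts. The difference of -0.27 ± 0.15 did not pass the threshold, with an adjusted p of 1 by limma. WT 3 and TG 2 were nearly level. Non-overlapping hearts were common on these arrays, at 2.97% of probes well above background with TG-PKR1 below WT and 2.72% with TG-PKR1 above. The 2 such chemokine probes of 38 are to be read against that share.

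None of the inflammatory ligands passed the threshold. Cxcl9, an interferon-induced ligand of Cxcr3 on activated T cells, was at 7.99, 8.10 and 8.59 in WT hearts and 8.0, 7.83 and 7.79 in TG-PKR1 hearts, a difference of -0.36 ± 0.19. WT 3 stood above the rest, and WT 1 lay just below TG 1. Without WT 3 the difference was -0.17, and between the 2 hearts that shared a slide it was -0.11. Cxcl10, of the same receptor, had a difference of 0.07 ± 0.25, with TG 2 at 7.45 and the other hearts between 6.47 and 6.78. Ccl8, which draws monocytes and T cells, was at 7.53, 7.20 and 7.70 in WT hearts and 7.51, 6.91 and 6.99 in TG-PKR1 hearts, a difference of -0.34 ± 0.21. TG 1 was again with the WT hearts. Leaving out 1 heart gave values from -0.53 (without WT 2) to -0.20 (without WT 3), and between the 2 hearts that shared a slide the difference was 0.31, in the other direction.

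The other monocyte ligands, Ccl2, Ccl7 and Ccl12, which act through Ccr2, had 4 probes with differences from -0.12 to 0.01. Their hearts varied together within the WT group, a pattern picked after the values were seen. Ccl12 was at 6.53, 7.55 and 8.07 in WT hearts, Ccl2 at 7.81, 8.20 and 8.55 and Ccl7 at 6.57, 6.98 and 7.35 on its more variable probe, each lowest in WT 1 and highest in WT 3. The second Ccl7 probe, at 6.60, 6.82 and 6.80, was also lowest in WT 1 but highest in WT 2. The WT SD of Ccl12, 0.78, was the largest of any chemokine probe well above background, for which the median SD was 0.17 in both groups. In TG-PKR1 hearts Ccl12 was at 6.89, 7.61 and 7.39. The Ccl12 difference of -0.09 ± 0.37 became -0.6 without WT 1. Among the arrays with scaled-up spots it was 0.97, and among the others -0.92.

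Ccl6, a macrophage chemokine, was at 9.76 to 10.04 in WT hearts and 10.30, 9.65 and 9.58 in TG-PKR1 hearts, so that TG 1 was highest and TG 2 and TG 3 lowest of all hearts. The difference was -0.09 ± 0.21. Ccl5, which draws T cells and eosinophils, was at 8.40, 8.38 and 7.79 in WT hearts and 8.21, 8.67 and 8.32 in TG-PKR1 hearts on 1 probe, a difference of 0.21 ± 0.21, while its second probe gave -0.05 ± 0.14. Ccl24, an eosinophil ligand of Ccr3, was at 8.65, 8.95 and 8.39 in WT hearts and 8.13, 9.01 and 8.54 in TG-PKR1 hearts, with a difference of -0.11 ± 0.25. TG 2 was the highest heart and TG 1 the lowest. This Ccl24 difference was 0.12 among the arrays with scaled-up spots, -0.54 among the others and -0.82 between the hearts that shared a slide. Ccl11, the other eosinophil ligand, differed by -0.14 ± 0.16. The one neutrophil ligand above the mark, Cxcl1, was well above background on 4 arrays and differed by -0.07 ± 0.07.

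The 2 chemokines that also exist as membrane-bound proteins did not pass the threshold either. Cx3cl1, or fractalkine, was at 9.89, 9.88 and 9.98 in WT hearts and 9.55, 9.89 and 9.76 in TG-PKR1 hearts, a difference of -0.18 ± 0.15. TG 2 was level with WT 1, and TG 1 was lowest. Cxcl16, the ligand of Cxcr6 and a scavenger receptor for oxidized lipoprotein, was at 7.79, 7.55 and 7.48 in WT hearts and 7.87, 7.62 and 7.90 in TG-PKR1 hearts on 1 probe. That probe gave 0.19 ± 0.16 and its second probe -0.10 ± 0.14, in opposite directions. Cxcl14, an epithelial and stromal chemokine, was at 8.85, 9.88 and 9.86 in WT hearts and 9.10, 9.95 and 9.52 in TG-PKR1 hearts. Its difference was 0.00 ± 0.32 with a 95% interval from -0.72 to 0.72, although the difference was 0.89 among the arrays with scaled-up spots and -0.76 among the others.

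Among the receptors, 9 probes of 8 genes were above the mark and 0 passed the threshold. Ccr6, the receptor of Ccl20 on B cells, T cells and dendritic cells, had the lowest difference after Cxcl13 among the 63 name-matched probes, and Cxcr5 was lower, at -0.55. It was at 8.52, 8.50 and 8.28 in WT hearts and 8.42, 8.01 and 7.54 in TG-PKR1 hearts, a difference of -0.45 ± 0.23 with a 95% interval from -0.97 to 0.07 and an adjusted p of 1 by limma. TG 1 lay within the WT hearts. Leaving out 1 heart gave values from -0.67 (without TG 1) to -0.21 (without TG 3). The difference was -0.75 among the arrays with scaled-up spots and 0.03 among the others. Cxcr7, now Ackr3, which scavenges Cxcl12, was at 11.44, 10.65 and 11.08 in WT hearts and 11.44, 11.19 and 11.11 in TG-PKR1 hearts, a difference of 0.19 ± 0.22. WT 2 was lowest and WT 1 and TG 1 were level. For Cxcr7 the direction turned with the arrays used. Its difference was -0.29 among those with scaled-up spots, 0.57 among the others and 0.79 between the hearts that shared a slide. Ccr2, Cx3cr1, Cxcr3, Cxcr4 and Cxcr6, receptors of monocytes and T cells, had differences from -0.13 to 0.07.

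Taken as a set, 1 of the 34 chemokine probes among the 20000 was called lower in TG-PKR1 hearts by limma, Cxcl13, against 0.095% of all probes tested. The set was chosen to include Cxcl13 with earlier results of these data known, so 1 of 34 cannot be read as an excess over that share. The count called higher was 0 by limma, as for all probes (0%), 0 at an unadjusted p below 0.05, and 0 by SAM. Cxcl13 was also the only one of the 34 with an unadjusted p below 0.05 in either direction, while 1.66% of all probes tested were lower and 0.715% higher at that level. Apart from Cxcl13, the 37 probes well above background had differences from -0.45 to 0.33 with a median of -0.09, and 26 of 37, or 70.3%, had a mean below that of the WT hearts. Over all 23205 probes well above background the median was 0.03 and 42.1% had a mean below that of the WT hearts. The smallest unadjusted p of these 37 was 0.0807, and none of their 95% intervals reached down to -1, the lowest bound being -0.97. That bound says little for dim probes, since signals were not background-subtracted and probes below the mark averaged 5.74 to 6.16. A probe near that level had little room to fall by 1, such as 1 of Cxcr4 and that of Ccl4, with WT means of 6.12 and 6.21. Cxcr5, which is not among the 37, had an interval that passed -1. Across the arrays 91 probes, or 0.392% of those well above background, were lower by more than 1. The 22 chemokine probes above the mark that the rule for values per heart did not choose ranged from -0.17 to 0.12.

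**Figure D3:**
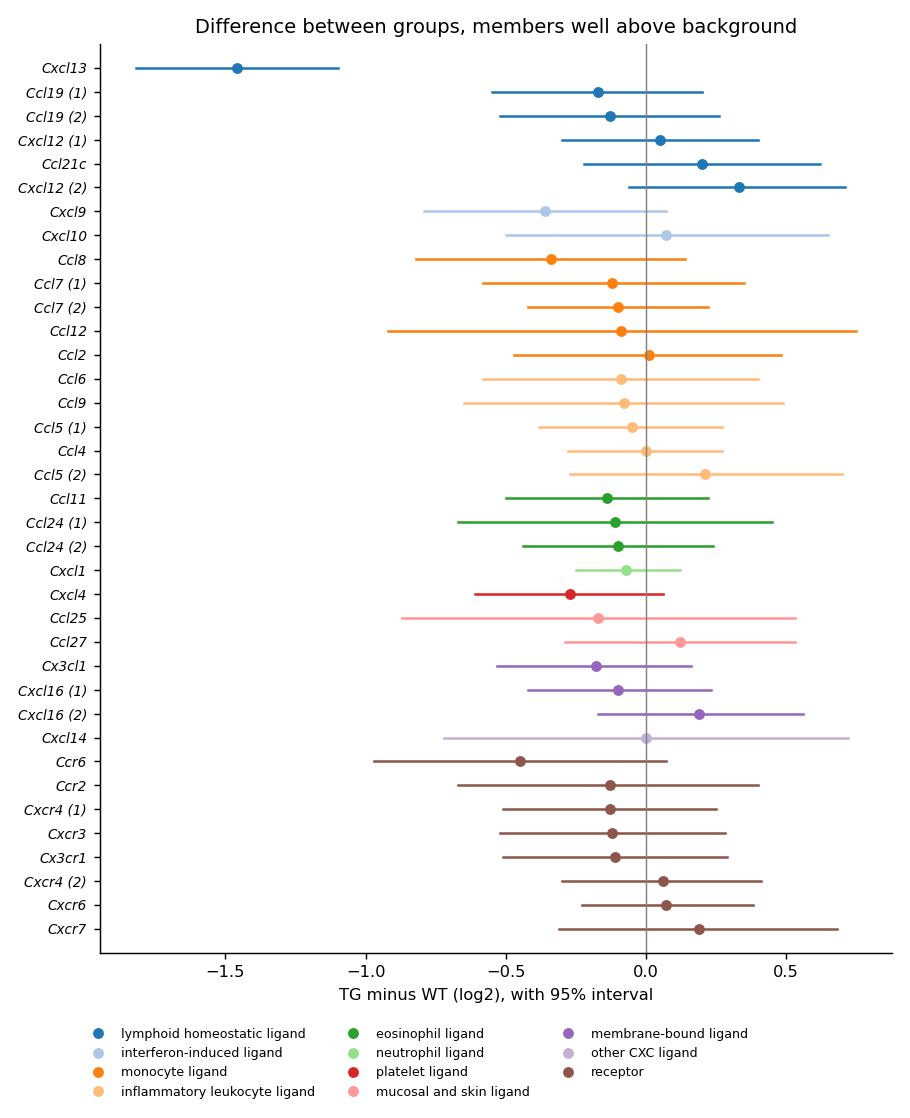
Difference between TG-PKR1 and WT hearts on the log2 scale (horizontal axis, points) with its 95% interval from limma (lines) for 37 of the 38 chemokine probes well above background on at least 3 arrays, coloured by role. Numbers in brackets tell probes of 1 gene apart. The interval of Cxcl13, from -1.82 to -1.10, does not overlap that of any other probe plotted, and the others lie between -0.97 and 0.75.

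Of 29 known ligand and receptor pairs, both partners were well above background on at least 3 arrays in 10. They were Cxcl13 with Cxcr5, Cxcl12 with Cxcr4 and with Ackr3, Cx3cl1 with Cx3cr1, Cxcl16 with Cxcr6, Cxcl9 and Cxcl10 with Cxcr3, and Ccl2, Ccl7 and Ccl12 with Ccr2. Only the ligand registered in 9 pairs, among them Ccl19 and Ccl21c, whose receptor Ccr7 was well above background on 2 arrays. In 3 pairs only the receptor registered, as for Ccr6, whose ligand Ccl20 was well above background on 0 arrays. Neither registered in 7 pairs. Cxcl13 and Cxcr5 was the pair with the fewest arrays on the receptor side among the 10, at 3, together with Cxcl16 and Cxcr6.

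Where 2 probes of a gene were both well above background, in 7 genes, their differences lay 0.01 to 0.29 apart and had the same sign in 4. Cxcl13 has a single probe, so its value has no second probe to set beside it. The probes cluster on the genome, with 17 on chromosome 11, 12 on chromosome 5 and 12 on chromosome 9. The 7 probes of chromosome 5 above the mark include Cxcl9, Cxcl10, Cxcl4, Cxcl1, Ccl24 and Cxcl13, and those other than Cxcl13 had differences from -0.36 to 0.07. The 13 probes of chromosome 11 above the mark ranged from -0.34 to 0.21.

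Related genes were read from lists drawn up by function, against a median difference of 0.03 over all probes above the mark. Of 11 probes above the mark for chemokine genes whose symbols differ or changed, which include Cxcr5, Ppbp, Xcr1, the atypical receptors and, from the 63 probes, Cxcl4 and Cxcr7, 0 were called by limma or SAM, 0 had an unadjusted p below 0.05, and their median difference was -0.06. Lymphotoxin and noncanonical NF-kB genes, which drive Cxcl13 in lymphoid stroma, had a median difference of -0.02 over 24 probes, with 0 called by limma or SAM and 1 at an unadjusted p below 0.05. That probe was Tnfrsf13c, the receptor of the B cell survival factor BAFF, at 6.82, 6.42 and 6.63 in WT hearts and 6.14, 6.06 and 6.41 in TG-PKR1 hearts, with a difference of -0.42 ± 0.17. In this list 15 of the 24 probes had a mean below that of the WT hearts, among them Ltb, given under other observations. Lta, Tnf and Tnfsf11 were not above the mark. Chemokine receptor signalling genes, such as the inhibitory G protein subunits, had a median difference of -0.02 over 35 probes, with 0 called by limma or SAM and 1 at an unadjusted p below 0.05, a probe of Gnai1 at -0.55. The other 3 probes of Gnai1 above the mark were at -0.20, -0.06 and 0.06, with overlapping hearts.

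Markers of fat cells moved with Cxcl13. In whole hearts, fewer cells of a type and less RNA per cell cannot be told apart. Adipocyte markers had a median difference of -1.38 over 10 probes above the mark, with 3 called lower by limma (Adipoq, Plin1 and Cidec) and 9 probes whose TG-PKR1 hearts all lay below WT. Their mean level was 11.09 to 11.52 in WT hearts and 9.79 to 10.10 in TG-PKR1 hearts, and Lep alone was not above the mark. Adiponectin, Adipoq, was at 12.44, 12.00 and 11.99 in WT hearts and 10.38, 10.20 and 10.08 in TG-PKR1 hearts, a difference of -1.93 ± 0.18. Brown adipocyte markers had a median difference of -0.74 over 8 probes, but the list was split. Ucp1 was called at -3.23 ± 0.42, and Cidea (-1.77), Dio2 (-1.39) and Elovl3 (-2.05) also had hearts that did not overlap. Cox8b and Cox7a1 were at -0.08 and -0.07, and the 2 probes of Ppargc1a were at 0.49 and 0.43, with overlapping hearts in all 4. Their mean level was 12.44 to 12.61 in WT hearts and 11.22 to 11.79 in TG-PKR1 hearts. The part of fat cells in the Cxcl13 difference was not tested.

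B cell markers were low and overlapped. On 6 probes above the mark of 13 the median difference was -0.44, all 6 had means below those of the WT hearts, 0 were called by limma or SAM, and 2 had an unadjusted p below 0.05. Their mean level was 7.52, 6.87 and 7.08 in WT hearts and 6.37, 6.47 and 7.05 in TG-PKR1 hearts, so that TG 3 lay with the WT hearts. Cd79b, a subunit of the B cell receptor complex picked after its values were seen, was at 9.27, 8.25 and 8.66 in WT hearts and 7.24, 7.62 and 8.42 in TG-PKR1 hearts, a difference of -0.97 ± 0.34. Cd79a, Cr2, Fcer2a and Blk were not above the mark. Lymphoid stroma, fibroblast, endothelial, T cell and macrophage markers had median differences from -0.02 to 0.03, mesothelial and epicardial markers -0.14, neutrophil markers -0.26 on 3 probes and cardiomyocyte markers 0.12, with 0 called by limma or SAM and 0 at an unadjusted p below 0.05 in each of these lists. Of the 9 mesothelial and epicardial probes above the mark, 8 had a mean below that of the WT hearts. In 2 of the 9, Upk1b (-0.25) and Lrrn4 (-0.24), every TG-PKR1 heart lay below every WT heart, against 2.97% of all probes above the mark. Of the 14 cardiomyocyte probes, 0 had a mean below that of the WT hearts. The part of B cells in the Cxcl13 and Cxcr5 values was not tested.

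**Figure D4:**
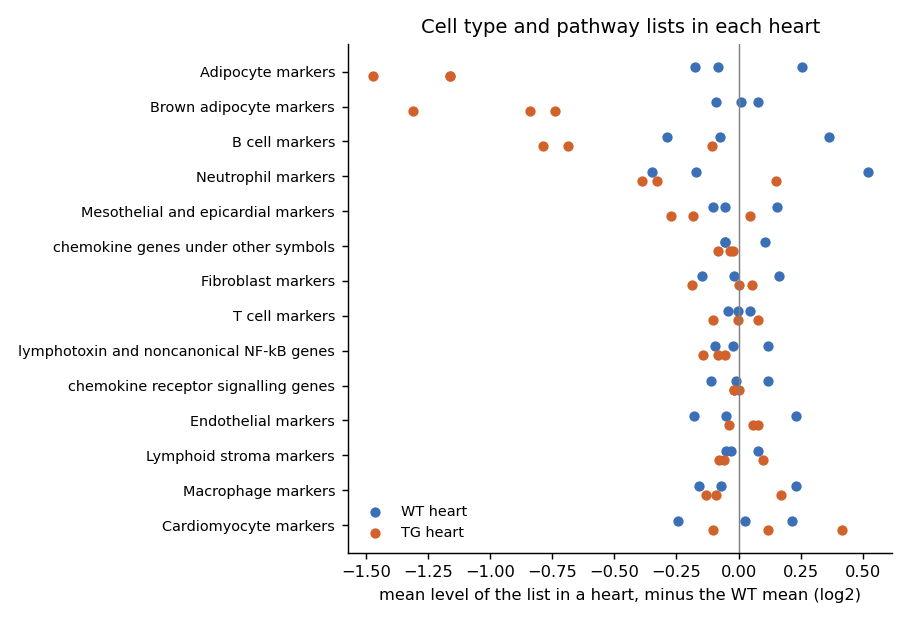
Mean log2 level of each list in each heart (horizontal axis, relative to the mean of the 3 WT hearts), over the probes well above background on at least 3 arrays, with WT hearts in blue and TG-PKR1 hearts in orange. The 2 fat cell lists part the groups, and in the B cell list TG 3, at 7.05, lies among the WT hearts.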

How the data were processed

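RNA of 3 WT and 3 TG-PKR1 hearts had been hybridized to 1-colour Agilent arrays by the authors, and the deposited scanner files hold spot intensity from Feature Extraction 9.5.1.1. The deposited table of normalized values holds log2 intensity, scaled by the authors with LOWESS against a median profile, and was used as an alternative. The LOWESS step and a filter by median to 20000 probes were taken from the study's methods. Here, log2 median signals without background subtraction were fitted by loess to the median over all 6 arrays, with the average of array and median as the axis, a span of 0.3 and 4 iterations and without control or outlier spots, and spots of a probe were averaged. The methods state neither the axis, the signal column nor a removal of outlier spots, and the median itself was tried as the axis in an alternative. The 20000 probes with the highest median were fitted with limma 3.58.1 (lmFit, eBayes; R 4.3.3), with Benjamini-Hochberg adjustment and a threshold of 0.05. The 4 chemokine probes above the mark but outside the 20000 took their p from a fit on all 41174 probes. SAM used all 20 assignments of the hearts at a false discovery rate of 0%. The scripts were tested on simulated data.

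Values per heart were given for Cxcl13, Cxcr5, probes past the threshold or without overlap, the 10 with the highest mean level and the 5 with the smallest p in each direction. Ccl2, Ccl7 and Ccl12 were added after their values were seen. In the other lists, genes past the threshold or without overlap could be named. The chemokine genes and the lists were chosen with earlier results of these data known. Each heart came from a separate mouse, and precision is limited by the 3 arrays per group. Alternatives covered signal, background, normalization, filter, test, scan mode, slide and leaving out each heart. One gene of the set is counted but not reported here. Of the 63 probes, 60 matched a RefSeq symbol.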

Additional observations from a re-analysis of the deposited data

How the results depend on the processing

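The Cxcl13 difference of -1.46 kept its direction in every alternative run. It no longer passed the threshold with 75th percentile scaling (-1.61, adjusted p 0.265 by limma), with all probes tested (-1.46, adjusted p 0.198), with the probes well above background tested (-1.46, adjusted p 0.0567), in the deposited table (-1.16, adjusted p 1), with scan mode as a block (-1.49, adjusted p 0.189) and with the median profile itself as the loess axis, chosen after seeing the data and possibly closer to the study's own method (-1.43, adjusted p 0.0932). In each of these 6 settings the count of chemokine probes called lower went from 1 to 0; the cause was not tested. Over all limma alternatives the adjusted p ran from 0.0149 to 1. Leaving out 1 heart gave -1.67 to -1.35 for Cxcl13 and 0 to 1 chemokine probes called lower. Without a test, Cxcl13 was at -1.73 among arrays with scaled-up spots, -1.24 among the others and -1.21 within the shared slide, and Cxcr5 was at -1.04, -0.37 and -0.13 in the same order. Cxcr5, -0.55, was also at -1.42 with processed signal and 75th percentile scaling together, -1.0 with that scaling alone and -0.92 to -0.38 on leaving out 1 heart, with no call. The median over chemokine probes above the mark, -0.09, was -0.18 with processed signal and 75th percentile scaling together, -0.19 with that scaling alone, which also moved the median of all such probes from 0.03 to -0.08, 0.01 among arrays with scaled-up spots, -0.15 among the others, -0.16 within the slide and -0.1 to -0.03 on leaving out 1 heart. The count of all probes called lower, 19, was 30 with normexp and quantile normalization together, 33 with quantile normalization alone, 31 with trended robust moderation, 54 by SAM, 29 without WT 2, 2 with the median profile as axis, and 0 with 75th percentile scaling, all probes, the background filter, the deposited table, the scan block and without each of the other 5 hearts. Ccl6 turned to 0.07 with the scan block. On leaving out 1 heart, Ccl6 ran from -0.3 to 0.03, Ccl24 from -0.29 to 0.09, the second Ccl19 probe from -0.28 to 0.01, Cxcr7 from -0.01 to 0.37 and Ccl5 from -0.03 to 0.35. None of the 15 other chemokine probes chosen by the rule for values per heart passed the threshold in any alternative that had a test. No paired analysis was possible because nothing in the labels ties a WT mouse to a TG-PKR1 mouse. Slide as a random block was not run, since it could not be fitted. Weak signal limits Cxcr5 and the 25 probes below the mark.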

Other observations

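The hearts stood in the same order for Cxcr5 and for Ltb, which encodes lymphotoxin beta, a lymphocyte cytokine that acts on stroma, a pattern picked after the values were seen. Ltb was at 10.16, 8.21 and 9.22 in WT hearts and 7.89, 7.76 and 9.04 in TG-PKR1 hearts, a difference of -0.97 ± 0.50 (SE, n = 3 per group) that did not pass the threshold. For both genes WT 1 was highest, followed by WT 3, TG 3, WT 2, TG 1 and TG 2. The B cell genes Cd79b and Ms4a1 had the same first 4 hearts in the same order, with Ms4a1 at 8.29, 7.75 and 8.05 in WT hearts and 6.63, 6.86 and 7.79 in TG-PKR1 hearts on 1 of its 2 probes. The other Ms4a1 probe broke the order, with TG 3 at 6.98 above WT 3 at 6.76. Cxcl13 had another order. TG 3, which lay above WT 2 for Cxcr5, Ltb, Cd79b and Ms4a1, was at 6.56 for Cxcl13, level with TG 2 and below every WT heart.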
